A study of Mus musculus with 8 samples.

Results

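The 10 genes described here encode proteins that neutrophils pack into granules or hold in bulk in their cytosol, and they are expressed at successive steps of neutrophil maturation. They are Mpo and Elane (primary granules), Ltf, Camp, Ngp and Lcn2 (specific granules), and S100a8, S100a9, Retnlg and Stfa2 (cytosolic or late-expressed products). They were chosen by their higher read counts at P0 than at E12.5 in these same libraries, so their differences between the stages are given as a description, with no test. They make up 10 of the 43346 gene identifiers counted. Of the 10, 9 were among the 15467 genes that passed the filter on low counts. Elane, with 11 reads in NPD28 and none at E12.5, was not.

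The libraries come from notochord-derived cells of Shh-cre;ROSA:YFP mice, in which Cre made from the Shh locus switches on YFP in Shh-expressing cells and in everything that descends from them. At E12.5 the notochords of 4 litters (NDP10.2, NPD3, NPD4 and NPD9.2) were dissected whole, freed of adjoining tissue and lysed, with no sort. At P0 the nucleus pulposus (NP) cells of 4 other litters (NPD26, NPD27, NPD28 and NPD30) were dissociated, passed through a mesh and sorted for YFP, with 10000 to 30000 cells recovered per litter. Stage and method of isolation therefore changed together and cannot be told apart, and both groups carry the same alleles. About 6 animals of a litter were pooled into each library, so every value below is that of a litter. Per library, 4442775 to 8904050 reads were counted on genes, at which 3 reads correspond to 0.353 to 0.738 CPM, the unit in which a gene's reads are scaled to library size (here after TMM normalization). Intervals and floors given below cover counting error only.

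The labelled tissue was checked against 9 notochord and NP marker genes. Their summed level was 2312 to 6139 CPM at E12.5 and 8200 to 31772 CPM at P0. Car3, a carbonic anhydrase gene, gave most of the P0 sum, and without it the ranges overlapped, at 1617 to 3769 CPM at E12.5 and 1949 to 6883 CPM at P0. Shh itself was at 420.3 to 1348 CPM at E12.5 and at 0.157 to 11.8 CPM at P0, whereas T, the notochord transcription factor gene brachyury, reached at least 241.5 CPM in every library. Noto, another notochord transcription factor gene, was at 0.433 CPM or less throughout. Of the P0 libraries, 2 stood apart and are named beside each result they touch. NPD28 held far more reads of 8 of the 10 genes than any other library. NPD30 held 3.06 times the mean of NPD26 and NPD27 in summed notochord and NP markers, and 0.0147 times their mean in summed macrophage markers. Without Car3 the notochord and NP sum was 6883 CPM in NPD30, against 3321 CPM in NPD26 and 1949 CPM in NPD27.

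Neutrophils arise in the bone marrow and fetal liver from myeloid progenitors. Promyelocytes make the primary (azurophil) granules with myeloperoxidase and serine proteases, myelocytes make the specific granules with lactoferrin and cathelicidin, and later cells make gelatinase granules while filling their cytosol with the calcium-binding S100A8/S100A9 complex. Because each granule protein is made in a short window, its mRNA marks a step of maturation rather than neutrophils in general, and mature cells keep the primary granule proteins after their mRNA has gone. The transcription factors PU.1 and members of the C/EBP family direct this sequence.

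The DNA just upstream of the 10 genes was read from RefSeq (build GRCm38.p6), since all were higher at P0 and since C/EBP factors and PU.1 are known to act at such promoters. In the 250 bases before the RefSeq start, TTGCNNAA (a C/EBP-type element) was present on either strand for 5 of the 10 genes (Ltf, Ngp, Lcn2, S100a9 and Retnlg), against 9.56% of all 32851 windows of that length. GAGGAA, the core that PU.1 recognizes, was present for 6 (Mpo, Elane, Ltf, Lcn2, S100a8 and Stfa2), against 23.3%. CCAAT was present for 5, against 33.8%, and TATAAA for 1 (S100a8), against 12.4%. The Lcn2 window lies inside the gene as Gencode annotates it. Other windows run partly into the annotated gene, with 47 bases ahead of it for Mpo, 156 for Stfa2 and 157 for S100a8. The GAGGAA match of Stfa2 and the TATAAA match of S100a8 lie at least partly inside the annotated gene. A gene was counted when any of its windows matched, whereas the shares are over single windows. These counts describe letters in a window and show neither binding nor use. The 4 genes with a C/EBP-type match ahead of the annotated gene, and Elane for comparison, are shown 5′ to 3′ up to the base before the RefSeq start or the start of the Gencode M21 gene, whichever comes first, with every match to the 4 motifs in capitals. In Ltf the C/EBP-type match overlaps a CCAAT match, 75 and 76 bases before the RefSeq start.
Ltf, chr9:111019042-111019270 (+ strand): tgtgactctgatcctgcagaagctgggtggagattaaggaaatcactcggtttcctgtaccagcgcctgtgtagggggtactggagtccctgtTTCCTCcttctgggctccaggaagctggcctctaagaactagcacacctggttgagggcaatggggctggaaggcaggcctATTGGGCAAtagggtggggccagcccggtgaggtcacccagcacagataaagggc
Ngp, chr9:110419558-110419746 (+ strand): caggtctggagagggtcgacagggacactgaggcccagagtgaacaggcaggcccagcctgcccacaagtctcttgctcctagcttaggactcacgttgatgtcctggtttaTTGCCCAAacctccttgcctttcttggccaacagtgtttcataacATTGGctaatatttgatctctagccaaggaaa
S100a9, chr3:90695722-90695971 (- strand): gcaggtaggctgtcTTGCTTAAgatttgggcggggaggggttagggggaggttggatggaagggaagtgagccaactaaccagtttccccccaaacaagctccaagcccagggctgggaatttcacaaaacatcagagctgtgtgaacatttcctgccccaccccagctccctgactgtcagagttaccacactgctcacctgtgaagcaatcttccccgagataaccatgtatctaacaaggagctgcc
Retnlg, chr16:48872358-48872607 (+ strand): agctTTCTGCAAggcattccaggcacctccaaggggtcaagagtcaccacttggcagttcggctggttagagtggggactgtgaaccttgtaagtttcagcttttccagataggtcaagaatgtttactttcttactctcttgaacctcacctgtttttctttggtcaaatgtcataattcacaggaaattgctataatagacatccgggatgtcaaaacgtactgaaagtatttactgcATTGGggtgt
Elane, chr10:79886062-79886246 (+ strand): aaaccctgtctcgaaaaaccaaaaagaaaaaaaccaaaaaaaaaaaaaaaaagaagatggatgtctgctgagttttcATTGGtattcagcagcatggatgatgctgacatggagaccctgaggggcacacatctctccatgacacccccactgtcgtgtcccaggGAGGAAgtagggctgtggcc
The Elane stretch holds a PU.1-type and a CCAAT match and no C/EBP-type match. The matches in Retnlg and S100a9 lie near the far end of the window, 246 and 236 bases before the start, and that of Ngp lies 138 bases before it.

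Each of the 10 genes was low at E12.5, at 26 reads or fewer per library, and present in every P0 litter. Over 3 reads were held by 2, 7, 6 and 7 of the 10 genes in NDP10.2, NPD3, NPD4 and NPD9.2. The 10 genes together took 5.51, 17.9, 10.17 and 13.3 RPM (reads scaled to the reads counted on genes, without TMM) in NDP10.2, NPD3, NPD4 and NPD9.2. At P0 they took 867.7, 931.3, 7498 and 1132 RPM in NPD26, NPD27, NPD28 and NPD30. The mean was 11.7 ± 5.21 RPM at E12.5 and 2607 ± 3262 at P0 (SD, n = 4 litters each), and without NPD28 the P0 mean was 977 ± 138 (SD, n = 3). As a share of counted reads this was 0.0868%, 0.0931%, 0.750% and 0.113% at P0, with an exact binomial 95% interval for NPD28 of 0.744% to 0.756%. NPD28 alone therefore set most of the P0 mean, and the other P0 litters still lay far above every E12.5 litter. For all 10 genes every P0 litter lay above every E12.5 litter, a separation found for 15.5% of all genes tested, but the genes were chosen on this contrast. In bulk RNA, fewer cells of a type and less RNA per cell cannot be told apart, which holds for every level below. 

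**Figure D1:**
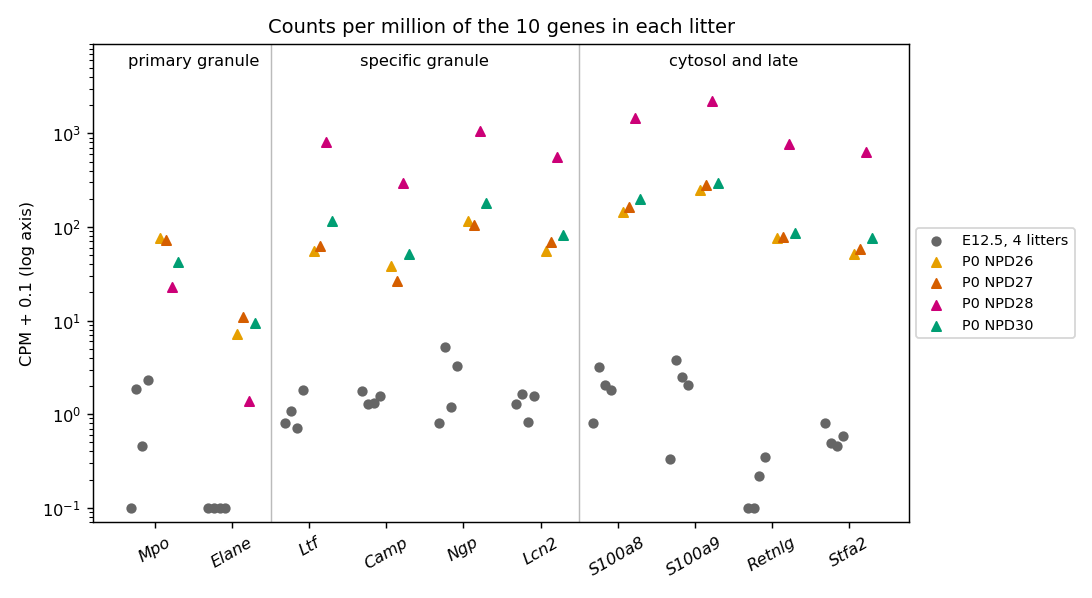
Level of each of the 10 genes in each litter as CPM + 0.1 on a log axis, with 4 grey circles for the E12.5 litters and 1 triangle for each P0 litter. All P0 triangles lie above the E12.5 circles of the same gene, and NPD28 is the highest P0 litter for 8 genes and the lowest for Mpo and Elane.

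Mpo (ENSMUSG00000009350.9, chromosome 11 from 87793581 to 87804413) encodes myeloperoxidase, the heme enzyme of the primary granule that makes hypochlorous acid. It was at 0, 1.76, 0.363 and 2.21 CPM in the E12.5 litters, from 0 to 9 reads. At P0 it was at 76.9, 71.7, 22.8 and 42.1 CPM in NPD26, NPD27, NPD28 and NPD30. Mpo was thus lowest in the litter where most of the other genes were highest, and its mean was 53.4 ± 25.5 CPM (SD, n = 4) with a fitted log2 fold change of 5.67. The annotated gene overlaps an antisense gene, Gm11505, and the strand setting of the counting is not given in the sources used here. If strand was ignored, reads on the shared stretch were left out as ambiguous, so Mpo may be counted too low by an unknown amount.

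Elane (ENSMUSG00000020125.6, chromosome 10 from 79886247 to 79888215) encodes neutrophil elastase, the serine protease stored beside myeloperoxidase. No E12.5 library held a read of it. At P0 NPD26 held 45 reads, NPD27 75, NPD28 11 and NPD30 62, or 7.08, 10.8, 1.30 and 9.40 CPM. Against a floor of 3 reads over all E12.5 libraries, Elane was at least 47.5-fold higher at P0. It was the lowest of the 10 genes per kilobase of exon in all 4 P0 litters, and NPD28 was again the lowest litter.

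Ltf (ENSMUSG00000032496.3, chromosome 9 from 111019271 to 111042767) encodes lactoferrin, the iron-binding protein by which specific granules are recognized. It was at 0.708, 0.976, 0.605 and 1.72 CPM at E12.5. In NPD26, NPD27, NPD28 and NPD30 it was at 55.4, 63.2, 817 and 114.6 CPM. The NPD28 value was 10.5 times the mean of the other P0 litters, the largest such ratio of the 10 genes. Without NPD28 the P0 mean was 77.7 ± 32.2 CPM (SD, n = 3), and the lowest P0 litter was 32.2 times the highest E12.5 litter.

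Camp (cathelicidin, ENSMUSG00000038357.9, chromosome 9 from 109847379 to 109849617) and Ngp (neutrophilic granule protein, ENSMUSG00000032484.7, chromosome 9 from 110419747 to 110423012) encode related members of the cathelicidin and cystatin superfamily, and with Ltf they lie on the same chromosome. Camp, whose product is cut into an antimicrobial peptide, was at 1.65, 1.17, 1.21 and 1.48 CPM at E12.5. At P0 it was at 38.4, 26.4, 297.4 and 50.9 CPM in NPD26, NPD27, NPD28 and NPD30. Its E12.5 litters were the closest together of the specific granule genes, at 1.38 ± 0.228 CPM (SD, n = 4). Ngp was at 0.708, 5.07, 1.09 and 3.20 CPM at E12.5. At P0 Ngp was at 117, 105, 1069 and 179 CPM in the same litter order, and per kilobase of exon it was the highest of the 4 specific granule genes in each. Fitted log2 fold changes were 6.23 for Camp and 7.20 for Ngp.

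Lcn2 (ENSMUSG00000026822.10, chromosome 2 from 32384633 to 32388252) encodes lipocalin 2, which binds bacterial siderophores and is also made by epithelial and other cells under inflammation. It was at 1.18, 1.56, 0.725 and 1.48 CPM at E12.5. In NPD26, NPD27, NPD28 and NPD30 it was at 54.9, 68.5, 554.4 and 82.6 CPM. Its litters kept the order of the other specific granule genes at the top, with NPD28 highest and NPD30 next. NPD28 lay 8.07 times above the mean of the other P0 litters in Lcn2, 7.71 times in Camp and 7.99 times in Ngp.

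S100a8 (ENSMUSG00000056054.8) and S100a9 (ENSMUSG00000056071.8), on chromosome 3 from 90668978 to 90670035 and from 90692632 to 90695721, encode the subunits of calprotectin, the calcium- and zinc-binding complex that is the most abundant cytosolic protein of neutrophils. S100a8 was at 0.708, 3.12, 1.93 and 1.72 CPM at E12.5. At P0 S100a8 was at 145.9, 163.4, 1469 and 198 CPM in NPD26, NPD27, NPD28 and NPD30. S100a9 was at 0.236, 3.71, 2.42 and 1.97 CPM at E12.5 and at 247.0, 283.4, 2241 and 292 CPM at P0. Both were highest in NPD28, at 8.68 and 8.17 times the mean of the other P0 litters. The ratio of S100a9 to S100a8 reads was 1.69, 1.73, 1.53 and 1.47 in NPD26, NPD27, NPD28 and NPD30, a far narrower range than that of either level.

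Retnlg (ENSMUSG00000022651.5, chromosome 16 from 48872621 to 48874496) encodes a resistin-like secreted protein found mostly in blood and marrow granulocytes of rodents. It had 0, 0, 1 and 1 reads in the E12.5 litters. In NPD26, NPD27, NPD28 and NPD30 it was at 76.1, 78.6, 760.7 and 86.1 CPM. Pooled over each stage, 8059 reads stood against 2, a depth-corrected ratio of 2975 with a counting interval of 823 to 24567, so depth at E12.5 limits its size. The 3 P0 litters other than NPD28 were close together, at 80.3 ± 5.21 CPM (SD, n = 3). Retnlg reads were 0.522, 0.481, 0.518 and 0.435 times those of S100a8 in the 4 P0 litters.

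Stfa2 (ENSMUSG00000022902.7, chromosome 16 from 36403992 to 36408457) encodes a stefin A, a cytosolic inhibitor of cysteine proteases, in a cluster of closely related genes. It was at 0.708, 0.390, 0.363 and 0.492 CPM at E12.5, from 2 to 3 reads. In NPD26, NPD27, NPD28 and NPD30 it was at 50.8, 57.4, 626.6 and 75.3 CPM. None of the 372 windows of 100 bases, the length of a read, in its Gencode M21 transcript occurs in a transcript of another gene. Alignment allows mismatches, so reads of close copies may still be shared and the division among stefin A genes is uncertain. For the other 9 genes no 100-base window was shared with another gene either.

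Levels of different genes were compared per kilobase of exon (CPM per kb), taking the merged exons of all transcripts of a gene as its length. In all 4 P0 litters S100a9 was the highest, followed by S100a8, and Elane was the lowest. S100a9 reached 473, 542.8, 4292 and 559.4 CPM per kb in NPD26, NPD27, NPD28 and NPD30, and Elane 7.19, 11.0, 1.32 and 9.55. Between S100a8 and Camp the places of Retnlg, Stfa2 and Ngp changed with the litter, with medians of 139, 141 and 121 CPM per kb that lay within the spread between litters. Lcn2, Ltf and Mpo exchanged places in the same way, with medians of 28.8, 25.8 and 16.6 CPM per kb, below Camp. The place of Lcn2 depended on the length taken. Its merged exons span 2623 bases and its longest coding transcript 915, and with the latter it lay at a median of 82.6 CPM per kb, above Camp (58.9) in every P0 litter, while S100a9, S100a8 and Elane kept their places.

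The 10 genes did not vary together between the P0 litters. In NPD28, 8 of the 9 genes tested lay over 4 times above the mean of the other P0 litters, which 1.61% of all genes tested did. Their ratios ran from 7.71 (Camp) to 10.5 (Ltf). For the primary granule genes the ratio was 0.359 for Mpo and 0.142 for Elane, with NPD28 the lowest P0 litter for both, as it was for 26.3% of all genes tested. In NPD30 the 10 genes lay between 0.567 (Mpo) and 1.93 (Ltf) times the mean of NPD26 and NPD27, and NPD30 was the lowest P0 litter for none of the 10, against 26.6% of all genes tested. These ratios compare single litters and have no replicate check.

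**Figure D2:**
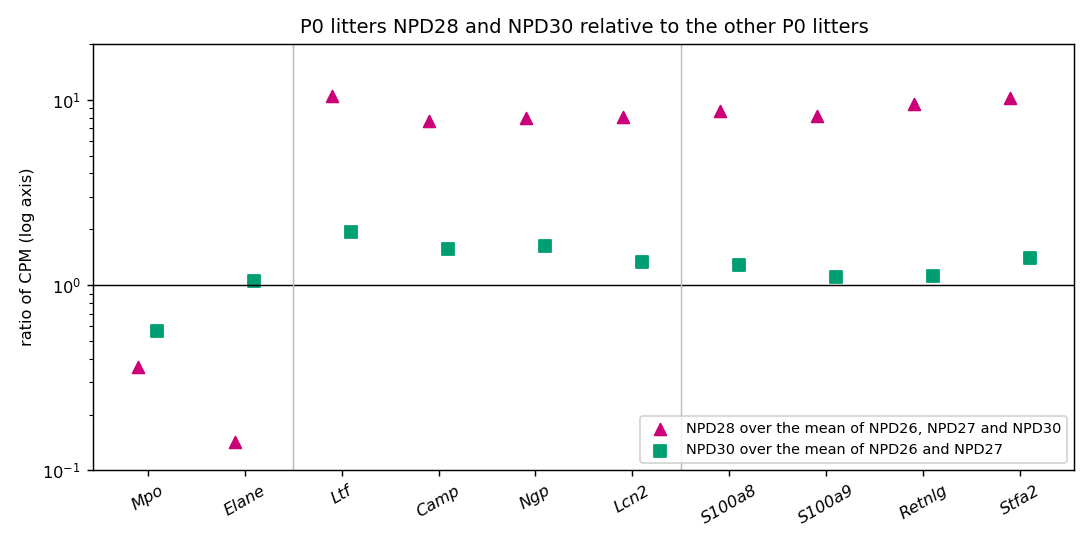
Ratio of CPM in NPD28 to the mean of the other 3 P0 litters (triangles) and of NPD30 to the mean of NPD26 and NPD27 (squares) for each gene, on a log axis with a line at 1. The 8 specific granule, cytosolic and late genes have NPD28 ratios of 7.71 to 10.5, and Mpo and Elane have 0.359 and 0.142.

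The make-up of the 10 genes' reads therefore differed between P0 litters. Primary granule genes gave 9.66% of them in NPD26, 8.89% in NPD27, 0.307% in NPD28 and 4.56% in NPD30. The exact binomial 95% intervals were 8.89% to 10.5%, 8.20% to 9.61%, 0.267% to 0.352% and 4.10% to 5.06%, so NPD28 and NPD30 each differed from the others by more than counting error. Specific granule genes gave 30.6%, 28.4%, 34.8% and 37.8%, and cytosolic and late genes 59.8%, 62.8%, 64.9% and 57.6%. Ltf had 0.720, 0.881, 35.8 and 2.72 times the reads of Mpo in the same litters. At E12.5 the 10 genes together had 25 to 91 reads per library, too few for such shares to be precise.

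**Figure D3:**
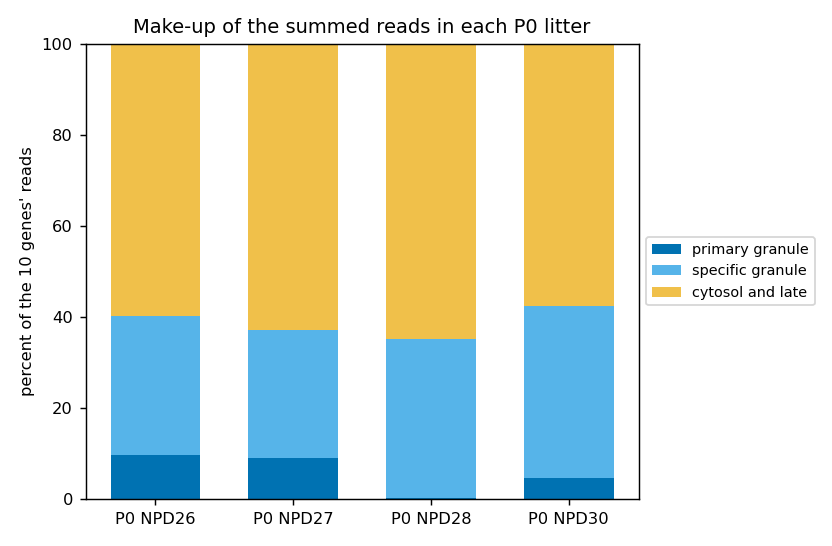
Share of the 10 genes' summed reads that fell on primary granule, specific granule and cytosolic or late genes in each P0 litter, in percent. The primary granule share is 9.66% and 8.89% in NPD26 and NPD27, 4.56% in NPD30 and 0.307% in NPD28.

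Neutrophil genes outside the 10 were taken from lists of granule, oxidase, receptor and family genes. Of 49 such genes, 41 were tested, and at an adjusted p under 0.05 (edgeR's quasi-likelihood test with Benjamini-Hochberg adjustment over all genes) 40 rose at P0, none fell and 1 was not called. With limma-voom 28 rose and with DESeq2's Wald test 29, the latter giving no adjusted p for 12. Over all genes tested 16.0% rose and 12.0% fell. The median log2 fold change of the 41 was 6.03, that of the 9 tested genes among the 10 was 8.01 (7.65 with Elane at its bound) and that of all genes tested was 0.04. Without NPD28 the median of the 9 was 6.32. Genes that have few reads at E12.5 pass the filter through P0 alone, so these shares are not independent of it.

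The surface of a neutrophil was represented by 18 receptor genes, of which 16 were tested and all 16 rose (11 with limma-voom). The largest fitted change was that of Fpr1, a receptor for bacterial formyl peptides, at 8.12 (SE 1.18, edgeR adjusted p = 0.00108). Csf3r, the receptor for the granulocyte growth factor G-CSF, was at 0.236 to 5.41 CPM at E12.5 and at 42.6, 64.2, 657 and 36.4 CPM in NPD26, NPD27, NPD28 and NPD30, with a log2 fold change of 6.54 (SE 1.25, adjusted p = 0.00392 by edgeR's quasi-likelihood test). Cxcr2, the chemokine receptor of mature neutrophils, was at 8.18, 11.3, 228.5 and 15.9 CPM in the same P0 litters and had a log2 fold change of 8.05 (SE 1.49, edgeR adjusted p = 0.00347). Ly6g, the antigen by which mouse neutrophils are commonly sorted, had too few reads to be tested and was at 0.472, 2.31, 28.6 and 1.67 CPM. Csf3r, Cxcr2 and Ly6g were each highest in NPD28, at 13.8, 19.4 and 19.3 times the mean of the other P0 litters. Of the 16 receptor genes tested, 10 lay over 4 times above that mean in NPD28, against 1.61% of all genes tested. Receptor genes that macrophages share differed in NPD28. The ratio was 0.756 for the Fc receptor gene Fcgr3 and 0.958 for Ptafr, the platelet-activating factor receptor gene. It was 6.575 for Itgam and 5.502 for Itgb2, both integrin genes. In NPD30 Fcgr3 and Ptafr lay at 0.0431 and 0.0295 times the mean of NPD26 and NPD27. NPD30 was the lowest P0 litter for 11 of the 16 receptor genes tested. Trem1, which amplifies myeloid activation, was called with a log2 fold change of 4.57 (edgeR adjusted p = 0.0427). It passed in only 2 of the 8 fits that each left out 1 litter. In some of these, among them those without NPD28 and without NPD30, the filter on low counts removed it before testing.

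Of the other primary granule genes, Prtn3 (proteinase 3) and Ctsg (cathepsin G), serine protease genes related to Elane, rose by 2.84 (SE 0.58, adjusted p = 0.00437) and 4.87 (SE 0.98, adjusted p = 0.00418) on the log2 scale by edgeR's quasi-likelihood test. Prtn3 was at 16.4, 12.1, 5.65 and 4.55 CPM in NPD26, NPD27, NPD28 and NPD30, and Ctsg at 12.0, 7.07, 1.88 and 3.94 CPM. Neither was high in NPD28, the litter in which Ltf reached 817 CPM. Serpinb1a, an inhibitor of these proteases, had a log2 fold change of 2.48 and was not called (SE 0.95, edgeR adjusted p = 0.0767). It was highest in NPD28, at 22.8 CPM, 2.80 times the mean of the other P0 litters. Prss57 and Bpi had too few reads to be tested, and Prss57 had an NPD28 ratio of 1.45. Summed over this list, which includes the inhibitor gene Serpinb1a, the NPD28 ratio was 1.14. Serpinb1a gave 22.8 of the 32.4 CPM of this sum in NPD28. The ratio was 0.513 for Prtn3 and 0.246 for Ctsg.

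All 11 other specific and gelatinase granule genes rose, of which 4 passed with limma-voom. The collagenase gene Mmp8, the glycoprotein gene Olfm4 and the gelatinase gene Mmp9 had log2 fold changes of 8.53 (SE 1.38), 8.13 (SE 1.41) and 7.08 (SE 0.98). In NPD28 they were at 542.7, 276.6 and 1059 CPM, 11.2, 11.97 and 9.02 times the mean of the other P0 litters. Chil3, a chitinase-like lectin gene without a read at E12.5, was at 6.13, 11.5, 44.1 and 10.01 CPM at P0, at least 137.8-fold above the floor of 3 reads over the E12.5 group. Lyz2 and Slc11a1, lysozyme and metal transporter genes that macrophages also express, behaved otherwise between litters. Lyz2 was at 2106, 2259, 1957 and 244 CPM and Slc11a1 at 145.6, 191.6, 152 and 6.06 CPM in NPD26, NPD27, NPD28 and NPD30.

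The 6 genes of the NADPH oxidase, which makes superoxide in neutrophils and macrophages, all rose, with log2 fold changes of 3.44 (Cyba) to 6.58 (Cybb). Cybb was at 309.8, 414.4, 373 and 53.1 CPM in NPD26, NPD27, NPD28 and NPD30. NPD30 was the lowest P0 litter for all 6, as it was for 23 of the 41 tested neutrophil genes outside the 10. Their stage ranges overlapped only for Cyba, at 10.15 to 24.6 CPM at E12.5 against 24.4 CPM in NPD30.

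Of the 6 other stefin A genes of the Stfa2 cluster, 5 were tested and all 5 rose (4 with limma-voom), with log2 fold changes of 8.11 (Stfa1) to 8.52 (Stfa2l1). Stfa1 was at 6.76, 15.3, 439.8 and 21.98 CPM in NPD26, NPD27, NPD28 and NPD30, a ratio of 29.97 for NPD28 over the other P0 litters against 10.24 for Stfa2, and the other 5 genes had ratios of 6.90 to 15.9. None of the 3 other resistin-like genes Retn, Retnla and Retnlb, relatives of Retnlg, had enough reads to be tested. Retn was at 0.942 CPM or less in every library.

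**Figure D4:**
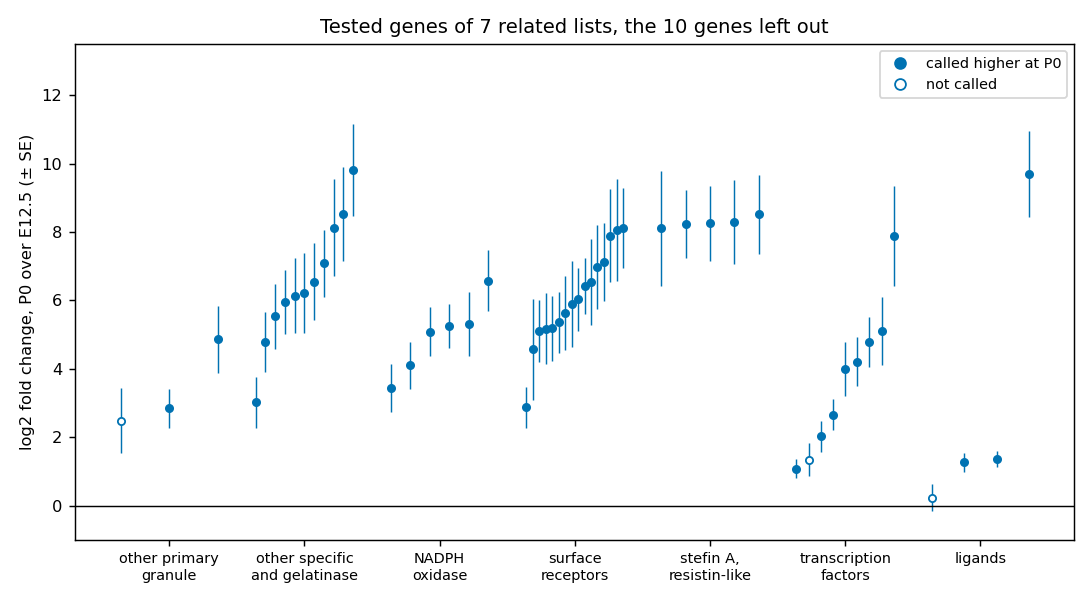
Log2 fold change of P0 over E12.5 with its standard error for each tested gene of 7 lists related to the 10 genes, which are left out; filled points passed an adjusted p under 0.05 in edgeR's quasi-likelihood test. All tested genes of the specific granule, oxidase, receptor and stefin A lists lie above 0, and Serpinb1a, Cebpd and Csf1 are the open points.

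Transcription factor genes of granulocyte and other myeloid cell formation were examined next. Of 10 such genes 9 were tested, 8 rose and none fell. Irf8, 1 of the 8, was at 0.743 times the mean of the other P0 litters in NPD28. In NPD30 Irf8 was at 0.0224 times the mean of NPD26 and NPD27. Cebpe, which is needed for specific granule genes, was at 0.195 CPM or less at E12.5 and at 2.36, 6.49, 49.4 and 4.25 CPM in NPD26, NPD27, NPD28 and NPD30, with a log2 fold change of 7.88 (SE 1.47, adjusted p = 0.00355 by edgeR's quasi-likelihood test). Its NPD28 ratio to the other P0 litters was 11.3. Spi1, which encodes PU.1, and Cebpa rose by 4.79 (SE 0.73) and 4.21 (SE 0.72), but were not raised in NPD28 in the same way, with ratios of 1.64 and 0.655. In NPD30 they were 0.0882 and 0.102 times the mean of NPD26 and NPD27. Cebpd had a log2 fold change of 1.34 and was not called (edgeR adjusted p = 0.0612), and Gfi1, at 4.83 CPM or less, was not tested.

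Of 10 ligand genes of granulopoiesis and neutrophil recruitment, 4 were tested and 3 rose. Cxcl2, a ligand of the receptor CXCR2, had no read at E12.5 and was at 34.9, 17.3, 9.30 and 4.70 CPM in NPD26, NPD27, NPD28 and NPD30, at least 111-fold above the floor. Cxcl12, which retains neutrophils in the marrow through CXCR4, was at 71.7 to 118 CPM at E12.5 and 169.5 to 312.6 CPM at P0 (log2 fold change 1.27, SE 0.28, edgeR adjusted p = 0.0065). Kitl, the stem cell factor gene, rose by 1.36 (SE 0.24, edgeR adjusted p = 0.00231) and Csf1, the macrophage growth factor gene, was not called (0.23, edgeR adjusted p = 0.713). Csf3, which encodes G-CSF, was at 0.721 CPM or less in every library. None of the ligand genes tested was over 4-fold higher in NPD28.

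Marker genes of other blood cells were set beside the 10 genes in the same libraries, and their part in the result was not tested. All 7 pan-leukocyte markers rose, including Ptprc (CD45), at 3.12 to 5.16 CPM at E12.5 and at 174.9, 250.2, 568 and 50.5 CPM in NPD26, NPD27, NPD28 and NPD30. All 8 macrophage markers rose, but limma-voom called only 2 of them and the unfiltered fit 4, and every P0 litter lay above every E12.5 litter for only 2 of them. Their summed level was 4674, 5210, 1705 and 72.6 CPM in the same litters against 61.5 to 119 CPM at E12.5. In NPD30 the macrophage sum thus lay inside the E12.5 range, with C1qc at 2.12 CPM, while the 10 genes in NPD30 summed to 1131 CPM, 1.26 times the mean of NPD26 and NPD27. In NPD28 the macrophage sum was 0.514 times the mean of the other P0 litters, while the 10 genes were 8.05 times theirs. Of the 8 macrophage markers only Ccr2 was not lowest in NPD30.

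**Figure D5:**
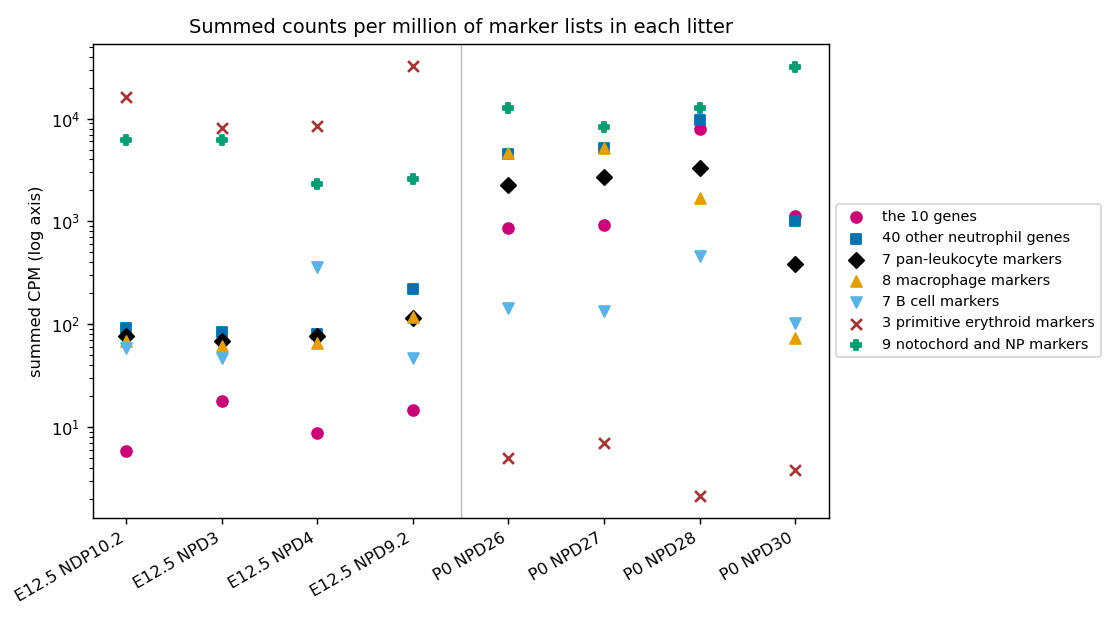
Summed CPM of the 10 genes and of 6 marker lists in each of the 8 litters on a log axis, with E12.5 left and P0 right of the line. The 10 genes are highest in NPD28 and about level in the other P0 litters, whereas the 8 macrophage markers fall to 72.6 CPM in NPD30.

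Lymphoid and other granulocyte markers moved less. The 7 B cell markers summed to 46.6 to 362 CPM at E12.5 and to 145, 135, 461 and 103 CPM at P0, and 3 of the 4 tested rose (1 with limma-voom). The B cell sum was thus highest in NPD28 among the P0 litters. Of 8 T and NK cell markers 1 was tested and not called, with a summed level of 33.2 CPM or less in every library. None of the 6 eosinophil markers was tested, and their sum was 84.5 CPM in NPD27 against 2.12 to 16.5 CPM in the other P0 litters. Of 8 mast cell and basophil markers 2 were tested and 1 rose (Mcpt8), with a sum of 28.8 CPM or less.

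Red cell, osteoclast and progenitor markers differed from the 10 genes in stage or in litter order. The 3 primitive erythroid markers fell, from a sum of 8120 to 32815 CPM at E12.5 to 2.12 to 7.07 CPM at P0. Of the 8 definitive erythroid markers 3 fell and 5 were not called (DESeq2's Wald test gave 6 that fell, limma-voom 2 and the unfiltered fit 1), and their sum was lowest in NPD28, at 449.9 CPM. Of 7 osteoclast markers 2 were tested and both rose, as the 10 genes did, with a sum of 17.4 to 29.5 CPM at E12.5 and of 396.7, 315.9, 157 and 125 CPM in NPD26, NPD27, NPD28 and NPD30. Among 6 progenitor markers Kit was called higher and Cd34, Hoxa9 and Meis1 lower. The calls of Kit and Cd34 were lost without NPD28 (edgeR adjusted p = 0.0659 and 0.0998) and without NPD30 (0.0741 and 0.0742), and each held in 2 of the 8 fits with a litter removed. Ms4a3, a marker of granulocyte and monocyte progenitors with too few reads to be tested, was at 7.86, 2.60, 0.589 and 1.21 CPM at P0. Ms4a3 thus had its lowest P0 level in NPD28, as Mpo and Elane did, and as 26.3% of all genes tested did. Of the 4 progenitor markers tested, NPD28 was the lowest P0 litter for 1. Kit was at 35.1 CPM in NPD28, between 25.7 CPM in NPD27 and 39.9 CPM in NPD30. Myb, one of the transcription factor genes examined above, was at 130.3 CPM in NPD28, 5.19 times the mean of the other P0 litters. Of the 9 notochord and NP markers 8 were tested, of which 3 rose, 1 fell and 4 were not called.

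Among the 12633 other genes with a mean log2 CPM of at least 2, those most like the mean profile of the 10 genes over the 8 litters were Dusp5, Cyb5r1, BC100530, Acpp, Anxa1, Cd44, Fgl2, Abcb4, Stfa3 and Stfa2l1, with Pearson's r of 0.986 to 0.992. This likeness rests mostly on the stage difference that the 10 genes share, and 3 of the 10 named are stefin A genes already described. Within the 4 P0 litters, likeness was taken as the smallest root mean square difference from the mean profile on the log2 scale, over 456 genes at least 8 times higher on average at P0. This mean profile joins genes that ran oppositely in NPD28, where it stood 1.60 above its P0 mean, against -1.48 for Mpo and Elane alone, so it matches no class of the 10 closely. The genes nearest to it were 6430548M08Rik (0.160), Stx11 (0.197), Pstpip1 (0.221), Anxa11 (0.259), Fgl2, Hp, Steap4, BC100530, Rasgrp2 and Stfa3 (0.366). Pstpip1, a cytoskeletal adaptor of leukocytes, was at 10.4, 11.0, 56.6 and 19.6 CPM in NPD26, NPD27, NPD28 and NPD30. Hp, which encodes the hemoglobin-binding protein haptoglobin and is also stored in neutrophil granules, was at 26.9, 32.3, 217.8 and 33.7 CPM.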

How the data were processed

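RNA of 4 E12.5 and 4 P0 litters was sequenced as single reads of 100 bases from TotalScript libraries. The authors aligned the reads with STAR 2.4.0j to GRCm38.p3 and assigned them to genes of Gencode M4 by htseq-count, whose version and strand setting are not given in the sources used here. The deposited values are raw counts, 1 per gene and library, without normalization. Reads that aligned to more than 1 place, 26.3% to 33.7% of those tallied per library, were not counted, which can lower genes with close copies. Reads tallied as ambiguous between genes, 7.07% (NPD28) to 17.5% (NPD9.2), were not counted either, which can lower genes that overlap another. Symbols were matched for 42462 of 43346 identifiers, and positions are from Gencode M21, a later annotation on the same build.

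Counts were analysed in R 4.3.3 with edgeR 4.0.16: TMM normalization, filterByExpr (minimum count 10, minimum total 15), robust dispersions and the quasi-likelihood test with stage as the only term. P-values were adjusted by the Benjamini-Hochberg method over all 15467 genes, and an adjusted p under 0.05 was called. The fit was tested on simulated data. CPM uses TMM library sizes, and log2 CPM adds a prior count of 2. Shares have exact (Clopper-Pearson) intervals at 95%. Alternatives used DESeq2 1.42.0 and limma 3.58.1.

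Samples were grouped by labelled stage. The 10 genes and all lists were chosen with earlier results of these data known, and the motifs after the values were seen. All 10 genes are named, with genes of the neutrophil, family and regulator lists, those that changed most or were not called first, and the 10 most alike under each of 2 measures. Markers of other cells are given by counts and sums, and the single markers named were chosen after their values were seen. Litters are taken as separate samples, and p-values measure the spread between them.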

Additional observations from a re-analysis of the deposited data

Results flagged for a closer look

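In 9 of the 22 groups of 4 litters examined (the 10 genes and their summed share, at each stage) 1 litter lay far from the others by Dixon's test at the 95% level and in all 9 it was the P0 litter NPD28 on the high side. Chance marks about 1 group in 20 where groups are not chosen by their values. The 10 genes were chosen by their P0 reads in these libraries, so that rate does not apply and the marks are a description. The 9 groups also share the same library, so they are not separate events. The gap of NPD28 to the nearest P0 litter, as a fraction of the P0 range, was 0.922 for Ltf, 0.909 for Camp, 0.923 for Ngp, 0.945 for Lcn2, 0.961 for S100a8, 0.978 for S100a9, 0.985 for Retnlg, 0.957 for Stfa2 and 0.960 for the summed share of counted reads. Mpo and Elane, which were lowest in NPD28, were not marked, nor was any gene at E12.5.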

How the results depend on the processing

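The median log2 fold change of the 9 tested genes, 8.01, ranged from 6.32 to 8.32 over the fits that each dropped 1 litter, with 6.32 without NPD28, and was 6.14 without NPD28 and NPD30 together, an alternative chosen after seeing the data. Under the other alternatives run (DESeq2 size factors, no filter, hemoglobin and mitochondrial genes left out, DESeq2's Wald test) it was 7.95 to 8.03. The mean share of the 10 genes at P0, 0.261% of counted reads, was 0.0977% without NPD28. Of the neutrophil genes outside the 10, 40 were called; the count was 28 with limma-voom and 29 with DESeq2's Wald test, which gave no adjusted p for 12 of them and for 5 of the 10 genes, and 39 to 42 under every other alternative, including 39 without NPD28. Counts of called regulators and ligands ran from 10 to 14, of called markers from 17 to 34 (11 and 25 in the fit reported), and of all called genes from 3612 to 5124 (4321). Cd34, Kit and Trem1 passed in only 2 of the 8 fits without 1 litter, and Alas2, Cd79a and Krt19 in 4. In some of these fits Trem1 was removed by the filter on low counts and so was not tested. None of the 9 genes or of the 86 called genes of the lists had the other direction under any alternative in which it was fitted, and of the 15 genes not called Csf1, Ebf1 and Krt8 did in at least 1. Depth limits the E12.5 levels: Elane had no read and Retnlg 2 reads over the stage. No paired analysis was possible because the stages share no litter number.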
